A study of Drosophila melanogaster with 13 samples.

Results

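Heads of adult fruit flies labelled as Rab7 RNAi were compared with heads that carried the driver alone. The Rab7-labelled group (genotype GMR-Gal4/UAS-Rab7 RNAi) and the Control group (GMR-Gal4/WT) have 4 libraries each, so the comparison uses 8 of the 13 libraries of the series. The other 5 libraries, from GMR-Gal4/UAS-Rab5 RNAi heads, entered the fit and serve as a second comparison. All flies were 5 days old and were reared at 25 °C, and every group carried the GMR-Gal4 driver. Per the labels, this driver switches transgenes on in the retina of the pupa and in the eye of the adult, whereas RNA came from the whole head. The measure is FPKM, the number of reads on a gene scaled to its length and to library size. Of 18344 genes, the 10038 with a mean of at least 1 FPKM over the 13 libraries were tested. Nothing in the labels tells separate crosses or pools of flies apart, and a p-value therefore measures only the spread between these libraries, which may be technical.

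Rab7 is a small GTPase of late endosomes. With the Mon1-Ccz1 exchange factor and the HOPS tethering complex it takes over from Rab5 as endosomes mature, and it directs their fusion with lysosomes and autophagosomes. Photoreceptors of the fly eye rely on this route to take up and degrade rhodopsin and membrane, and the stated purpose of the series is the part of Rab family members in microtubules and tubulin levels, with eye degeneration in the Rab5 line.

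The libraries held 17138630 to 21410768 reads on genes, and eye, brain and male markers were present in all of the 8 compared. The rhodopsin gene ninaE, which marks the outer photoreceptors, had at least 10200.0 FPKM in them, and the neuronal gene elav lay between 23.6 and 41.3 FPKM. The male-specific RNA lncRNA:roX1 had 202.5 to 251.8 FPKM in Rab7-labelled and 239.5 to 259.3 FPKM in Control libraries, while the yolk gene Yp1, made by females, stayed below 1 FPKM in all of them. Of the other yolk genes, Yp2 reached 1.21 FPKM at most, in Rab7-labelled library 4, and Yp3 had 12.5, 32.5, 42.9 and 15.4 FPKM in Rab7-labelled libraries 1 to 4, against 43.5 to 52.1 FPKM in Controls (adjusted p = 0.30; 0.0016 within the high-Act57B class defined below). One division cut across the groups. The muscle actin gene Act57B had 1438 and 1445 FPKM in Rab7-labelled libraries 1 and 4 and 1574 FPKM in Control 4, against 652.6 to 846.5 FPKM in the other 5 of these 8 libraries. The labels name no batch for it. In what follows, "high-Act57B" means those 3 libraries (Act57B of at least 1000 FPKM) and "low-Act57B" the other 5, and values within each class are given where they matter. Rab5 RNAi libraries 1 and 5 also reached 1000 FPKM, and Rab5 RNAi libraries 2, 3 and 4 did not. The fit within each class held its Rab5 RNAi libraries too, which entered the estimate of spread. The mitochondrial large ribosomal RNA took 3.64%, 5.54%, 2.87% and 2.82% of reads in Rab7-labelled libraries 1 to 4, against 2.36%, 2.61%, 2.29% and 1.58% in Controls 1 to 4, without overlap. Its Rab7-labelled minus Control difference in log2(FPKM + 1) was 0.74 ± 0.28 (SE, limma adjusted p = 0.19). Of all tested genes, 13.8% had no overlap in FPKM between these groups.

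The transcript targeted by the RNAi was not lower. Rab7 (FBgn0015795, chromosome arm 3R, 23993008 to 23995452, plus strand) had 101.4, 109.0, 92.9 and 87.3 FPKM in Rab7-labelled libraries 1 to 4, against 98.6, 99.7, 96.2 and 105.4 FPKM in Controls 1 to 4. The groups overlapped, and the 2 lowest and the highest of the 8 values were all in Rab7-labelled libraries. The difference on the log2(FPKM + 1) scale was -0.04 ± 0.08 (SE, n = 4 each; limma with Benjamini-Hochberg adjustment, adjusted p = 0.88), with a 95% interval from -0.21 to 0.13. It changed sign, to 0.01, without Rab7-labelled library 4. The labels are therefore given as labels throughout. For comparison, Rab5 had 109.7 to 146.0 FPKM in Rab7-labelled heads and 51.7 to 64.5 FPKM in the heads with RNAi against it.

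Against Control, 322 of 10038 genes (3.21%) passed an adjusted p of 0.05 in Rab7-labelled heads, 165 higher (1.64%) and 157 lower (1.56%). Differences are given as Rab7-labelled minus Control in log2(FPKM + 1), a scale that understates changes of genes with low values. Of the called genes, 102 differed by at least 1 log2 unit (56 higher, 46 lower) and 19 by at least 2, and the median size was 0.76. The median over all tested genes was -0.009. The 4 Rab7-labelled and 4 Control libraries did not overlap for 308 of the called genes, and the same held for 1382 of all tested genes (13.8%). Some called genes were low in 1 group: 25 had a mean below 1 FPKM in Control and 22 had one in Rab7-labelled heads. Such genes passed the filter only through their level in the other groups, and their share among all tested genes was not counted. Whole heads were sequenced, so fewer cells of a type and less RNA per cell cannot be told apart in any of these values.

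**Figure D1:**
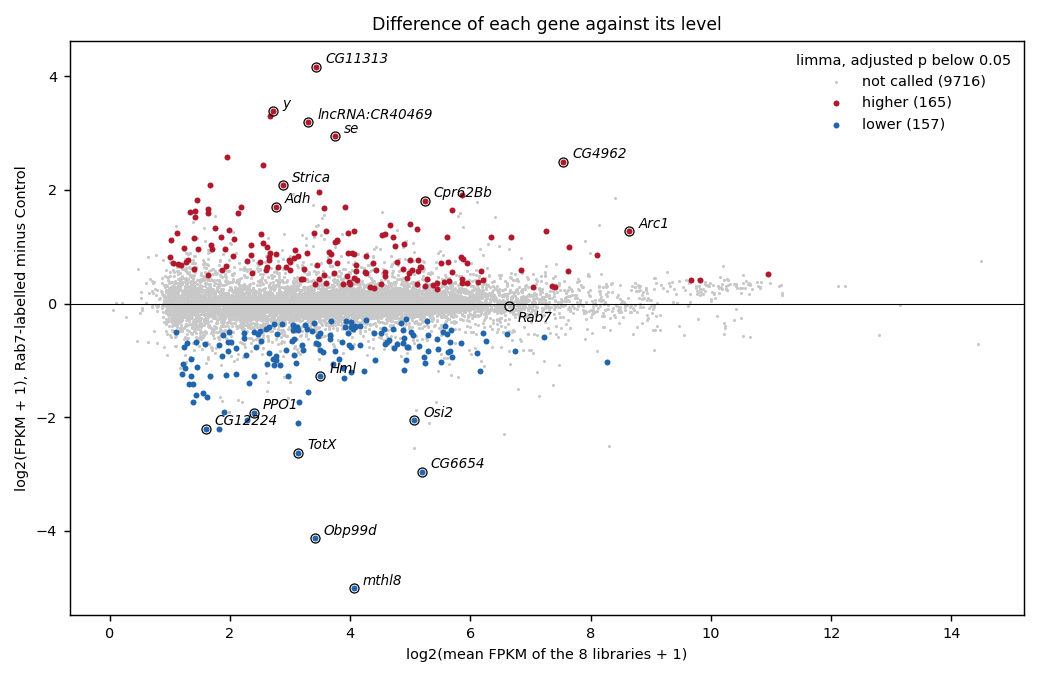
Each point is 1 of 10038 genes; the x axis is the log2 of its mean FPKM over the 8 libraries plus 1, and the y axis is the Rab7-labelled minus Control difference of log2(FPKM + 1). Red and blue points are the 165 genes called higher and the 157 called lower, grey points were not called, and circles mark genes named in the text; Rab7 sits on the zero line and the largest drops, mthl8 and Obp99d, lie far below all others.

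All 322 called genes had the same sign within both Act57B classes, though these classes reuse the same libraries. The spread behind the calls within a class also came from the Rab5 RNAi libraries of that class. Between Rab7-labelled libraries 2 and 3 and Controls 1 to 3, 191 of the 322 were called. Between Rab7-labelled libraries 1 and 4 and Control 4, 139 were called, where the lone Control is assumed to vary like the other groups. Both classes called 94 of them. Leaving out 1 of the 8 libraries left 167 to 297 called genes, and 150 of the 322 kept their call whichever library was left out. Without Rab7-labelled library 1 or 4 the count was 179 or 193, and without Control 1, 2 or 3 it was 177, 197 or 167.

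The largest drop was in mthl8 (FBgn0052475, 3L, 22428 to 26308, plus strand), a gene of the methuselah family of G-protein-coupled receptors. No read fell on it in any of the 4 Rab7-labelled libraries, against 34.0, 30.1, 33.8 and 27.5 FPKM in Controls 1 to 4. Taking 3 reads over the Rab7-labelled group as the limit of a count of 0, its level was at least 2638-fold lower there (limma adjusted p = 1.9e-12), a limit that covers counting error only. The 5 Rab5 RNAi libraries also had no read on it, so the RNAi genotypes could not be told apart at this gene.

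CG6654 (FBgn0038301, 3R, 15211277 to 15213658, minus strand) had 7.83, 6.96, 7.31 and 7.19 FPKM in Rab7-labelled libraries, against 65.8, 63.6, 67.2 and 58.2 FPKM in Controls. The spread within each group was small beside the gap, and the difference was -2.96 ± 0.08 (limma adjusted p = 8.8e-11). Rab5 RNAi heads stood at 6.55 to 8.89 FPKM, and the Rab7-labelled minus Rab5 RNAi difference was -0.07 (adjusted p = 0.63).

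Obp99d, an odorant binding protein gene, had 0, 0.24, 0 and 0.11 FPKM in Rab7-labelled libraries, 3 reads in all, against 21.8, 21.6, 24.8 and 8.73 FPKM in Controls. Control 4 was the lowest Control and still lay far above every Rab7-labelled library (-4.13 ± 0.27, adjusted p = 2.0e-06). Its neighbour Dup99B, which encodes a seminal peptide related to sex peptide, lies 64 bases away on the other strand. Dup99B had 0 to 0.39 FPKM in Rab7-labelled libraries and 0.93 to 4.29 FPKM in Controls (-1.62 ± 0.28, adjusted p = 0.0069), and its call ended within the high-Act57B class (-0.72, adjusted p = 0.38; 0.00025 to 0.38 over the alternatives run).

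TotX, a Turandot stress gene, had 0.26, 3.08, 1.78 and 1.39 FPKM in Rab7-labelled libraries against 13.5, 12.5, 14.7 and 15.2 FPKM in Controls (-2.63 ± 0.33, limma adjusted p = 0.00082). The Osiris gene Osi2 had 7.78, 16.03, 18.6 and 8.17 FPKM against 56.6, 55.7, 53.3 and 44.2 FPKM (-2.06 ± 0.27, adjusted p = 0.0011). Within the Rab7-labelled group Osi2 was lower in the pair of high-Act57B libraries, and both pairs were below all Controls. The metallothionein gene MtnD had 0 to 1.53 FPKM in Rab7-labelled and 3.15 to 10.7 FPKM in Control libraries (-2.05 ± 0.33, adjusted p = 0.0039). CG12224 had 9 reads over the 4 Rab7-labelled libraries and 470 over the 4 Controls (-2.20 ± 0.21, adjusted p = 9.0e-05). CG9344 (-1.55 ± 0.18), CG13833 (-1.31 ± 0.22) and the noncoding CR45470 (-1.74 ± 0.30) completed the large drops that are described here, each without overlap. The calls of MtnD, CG13833 and CR45470 ended within the high-Act57B class, at adjusted p of 0.065, 0.051 and 0.22.

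**Figure D2:**
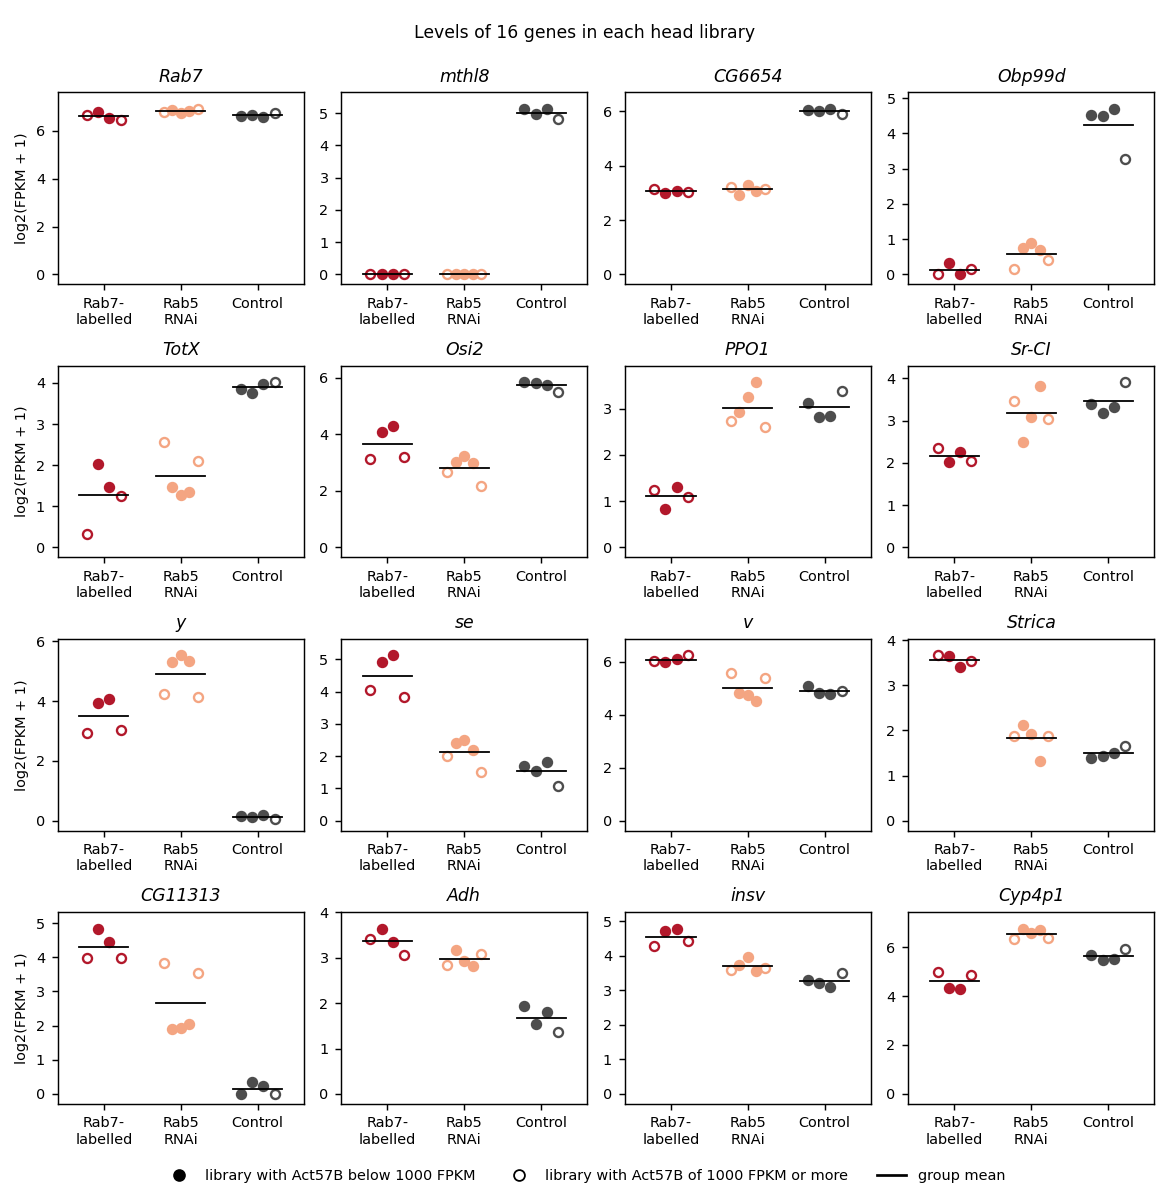
Each panel shows 1 gene, with log2(FPKM + 1) on the y axis and the Rab7-labelled, Rab5 RNAi and Control libraries from left to right. A point is 1 library, open where Act57B reached 1000 FPKM, and the line is the group mean; Rab7 is level across groups, mthl8, CG6654 and Obp99d are lower in both RNAi groups than in Control, and PPO1, se, v and Strica set Rab7-labelled heads apart from both others.

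The largest rise was in CG11313, with 14.7, 27.7, 20.7 and 14.8 FPKM in Rab7-labelled libraries against 0, 0.27, 0.18 and 0 FPKM in Controls. All Controls together held 10 reads on it, and the difference was 4.16 ± 0.41 (limma adjusted p = 0.00011). The yellow pigment gene y followed, with 6.67, 14.4, 15.8 and 7.27 FPKM in Rab7-labelled libraries against 0.11, 0.08, 0.14 and 0.03 FPKM in Controls (3.38 ± 0.34, adjusted p = 0.00011). Rab5 RNAi heads had still more of it, 16.7 to 45.2 FPKM, and the Rab7-labelled minus Rab5 RNAi difference was -1.40 (adjusted p = 0.014). The call of y ended in 1 of the alternatives run, limma voom on reads (adjusted p = 0.056; 7.4e-08 to 0.056 over all).

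Strica, which encodes a caspase with a long prodomain, had 11.7, 11.6, 9.66 and 10.6 FPKM in Rab7-labelled libraries against 1.62, 1.71, 1.81 and 2.13 FPKM in Controls. The groups were far apart (2.08 ± 0.15, adjusted p = 5.5e-06). Adh, the alcohol dehydrogenase gene, had 9.64, 11.5, 9.22 and 7.29 FPKM against 2.82, 1.92, 2.48 and 1.58 FPKM (1.70 ± 0.15, adjusted p = 3.9e-05). CG13071 had 3.72 to 5.01 FPKM in Rab7-labelled and 0 to 0.40 FPKM in Control libraries (2.08 ± 0.16, adjusted p = 8.0e-06).

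Several rises were uneven between the Act57B classes of the Rab7-labelled group. CG4962 had 435.5 and 467.1 FPKM in the high-Act57B libraries 1 and 4 and 187.3 and 189.0 FPKM in libraries 2 and 3, against 40.2 to 74.0 FPKM in Controls (2.50 ± 0.34, adjusted p = 0.0015). CG13117 likewise had 116.8 and 129.1 FPKM, then 59.5 and 60.2 FPKM, against 17.3 to 38.0 FPKM in Controls (1.90 ± 0.36, adjusted p = 0.013), and without Control 3 its adjusted p was 0.050. Both genes were called within each class. CG14329 (2.44 ± 0.30, adjusted p = 0.00058) and lncRNA:CR40469 (3.19 ± 0.53, adjusted p = 0.0051) were also higher without overlap, and the second varied widely, from 5.47 to 36.1 FPKM over the Rab7-labelled libraries, and gave 0.088 within the high-Act57B class.

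**Figure D3:**
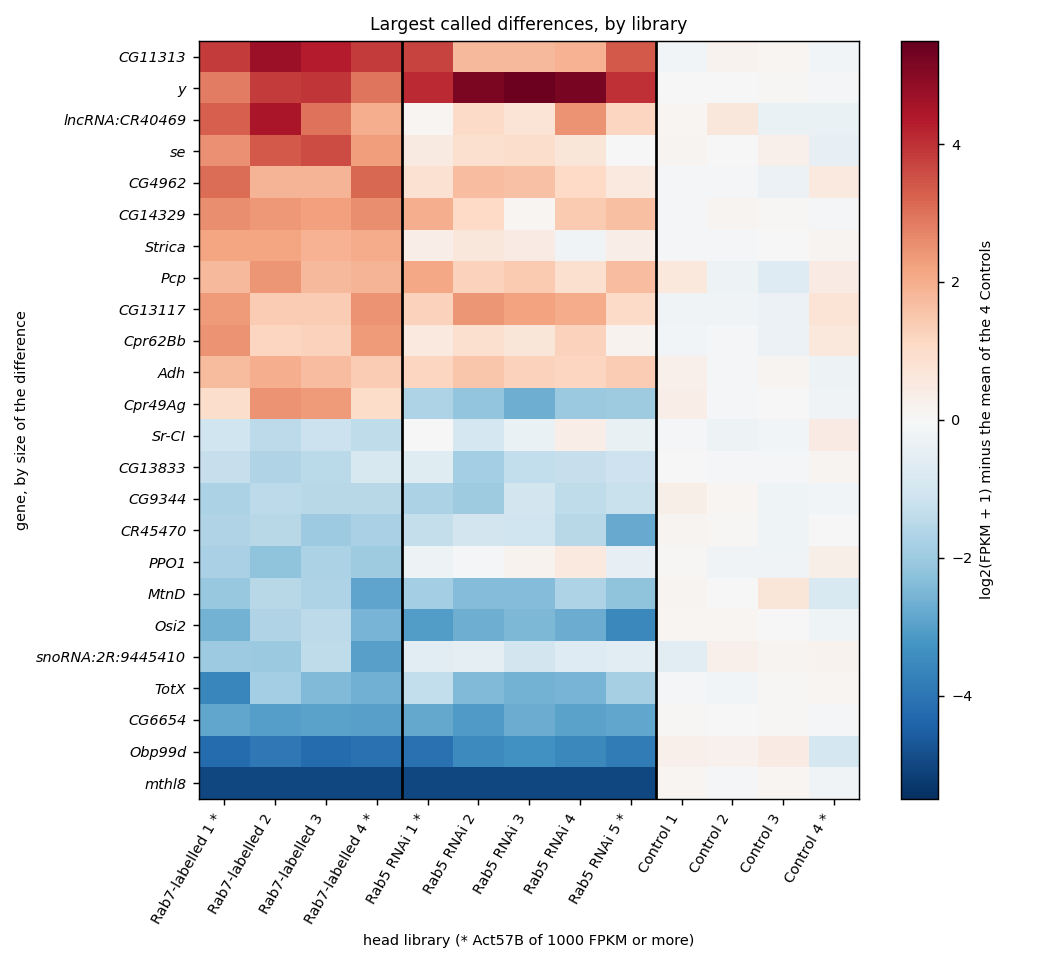
Rows are the 12 genes with the largest called rise and the 12 with the largest called drop (a mean of at least 5 FPKM in the higher group, no overlap), and columns are the 13 libraries. Colour is log2(FPKM + 1) minus the mean of the 4 Controls, and stars mark libraries with Act57B of at least 1000 FPKM; the 4 Rab7-labelled columns have 1 colour in every row, while the Rab5 RNAi columns match them in some rows and stay near Control in others, such as PPO1 and Strica.

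No gene of the Rab7 machinery itself was called, and 2 lysosomal genes fell. Over all tested genes 1.64% were called higher and 1.56% lower, the shares to set beside each list count from here on. None of the 22 tested genes for Rab7, Mon1-Ccz1, HOPS and retromer was called (median difference -0.014, against -0.009 over all genes), and none of 25 other Rab genes (median 0.106), 26 early endosome and ESCRT genes (0.068), 21 subunits of the vacuolar proton pump (0.069), 23 autophagy genes (0.059) or 6 genes of the Niemann-Pick type C family (0.013). At an unadjusted p below 0.05 these lists held 3, 5, 5, 2, 2 and 1 genes. Of 31 tested genes for lysosomal hydrolases and membrane proteins, 2 fell and none rose. Hexo2, a hexosaminidase gene, had 20.1, 18.5, 29.2 and 21.5 FPKM in Rab7-labelled libraries and 39.6, 40.3, 36.9 and 35.8 FPKM in Controls (-0.77 ± 0.18, adjusted p = 0.033). Gal, a beta-galactosidase gene, had 2.78 to 3.71 FPKM against 4.91 to 5.36 FPKM (-0.49 ± 0.12, adjusted p = 0.042). Both calls were near the threshold: the call of Gal ended without any 1 of the 8 libraries (adjusted p 0.053 to 0.13), and that of Hexo2 without any 1 but Rab7-labelled library 3 (highest 0.10).

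Microtubule genes, the subject of the series, gave 2 calls. Among 9 tested tubulin genes betaTub60D, a beta-tubulin of developing tissues, fell. It had 3.72, 5.59, 6.55 and 3.72 FPKM in Rab7-labelled libraries against 9.02, 9.15, 9.24 and 12.3 FPKM in Controls (-0.91 ± 0.22, adjusted p = 0.042). Within the low-Act57B class it gave -0.52 (adjusted p = 0.36), and leaving out any 1 library but Rab7-labelled library 3 ended the call (0.13 at most; 0.0030 to 0.36 over all alternatives run). The abundant tubulins were not called: alphaTub84B averaged 926.0 ± 78.4 FPKM in Rab7-labelled and 818.5 ± 44.5 FPKM in Control heads (SD, n = 4 each; adjusted p = 0.58), and betaTub56D 474.6 ± 56.1 and 448.5 ± 37.0 FPKM (adjusted p = 0.89). betaTub97EF (-0.20, adjusted p = 0.51), alphaTub84D (-0.12, 0.52), gammaTub23C (0.17, 0.33), alphaTub67C (0.33, 0.32), betaTub85D (0.20, 0.49) and CG7794 (0.09, 0.88) were not called either.

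Of 41 tested genes for microtubule-associated proteins, motors and tubulin cofactors, tacc alone was called. This gene of centrosomal microtubules had 36.2 to 44.7 FPKM in Rab7-labelled and 32.4 to 33.0 FPKM in Control libraries (0.32 ± 0.08, adjusted p = 0.0497), a call that ended in 14 of 21 alternatives, among them the omission of any 1 library but Rab7-labelled library 3 (0.16 at most). The kinesin-like gene nod, not on that list and chosen after its values were seen, rose more firmly. It had 21.4, 15.99, 17.9 and 21.7 FPKM in Rab7-labelled libraries against 8.501, 9.25, 8.78 and 13.8 FPKM in Controls (0.88 ± 0.15, adjusted p = 0.0050), and kept its call in every alternative run.

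Among the lists of eye genes, 2 pigment genes and 2 members of the lens and eye cuticle list rose, and no gene of the visual cascade was called. These are whole-head values, so they do not place a change in the eye. Of 18 tested ommochrome and drosopterin genes 2 rose (11.1%, against 1.64% of all tested genes) and none fell (median 0.146). The gene sepia (se), whose enzyme makes a precursor of the red drosopterins, had 15.5, 29.2, 33.8 and 13.1 FPKM in Rab7-labelled libraries against 2.22, 1.91, 2.55 and 1.11 FPKM in Controls (2.94 ± 0.29, adjusted p = 0.00011). Vermilion (v), the tryptophan oxygenase gene of brown ommochromes, had 63.6, 62.1, 67.1 and 74.7 FPKM against 33.4, 27.2, 26.7 and 28.8 FPKM (1.18 ± 0.19, adjusted p = 0.0041). Rab5 RNAi heads had 1.87 to 4.65 FPKM of se and 22.0 to 46.4 FPKM of v, both lower than in Rab7-labelled heads (differences of 2.35 and 1.07, adjusted p = 0.00016 and 0.0020). The genes v, y, w and ry are also used as markers in fly transgenes and stocks, and the labels do not give the markers of these lines. Of these, w had 11.1 to 12.1 FPKM in Rab7-labelled and 5.69 to 11.8 FPKM in Control libraries (adjusted p = 0.41), and ry 6.13 to 8.89 and 6.33 to 8.24 FPKM (adjusted p = 0.92). The highest Control for w was Control 4, and Controls 1 to 3 had 5.69 to 7.30 FPKM. Within the low-Act57B class w was called higher (0.77, adjusted p = 0.026), and within the high-Act57B class its difference was -0.027.

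Among 8 tested genes on the list for the corneal lens and eye cuticle 2 rose (25.0%, against 1.64% of all tested genes) and none fell (median 0.498). Drosocrystallin (Crys), a lens protein gene, had 2.17, 3.87, 3.57 and 2.39 FPKM in Rab7-labelled libraries against 0.26, 0.38, 0.49 and 0.36 FPKM in Controls (1.52 ± 0.18, adjusted p = 0.00046), and CG14715 had 22.99 to 27.02 against 14.03 to 17.4 FPKM (0.58 ± 0.11, adjusted p = 0.0088). The call of CG14715 ended within the high-Act57B class (adjusted p = 0.15). Of 21 genes of photoreceptor structure, the protocadherin gene Cad99C alone was called, with 19.1, 13.6, 14.4 and 21.8 FPKM in Rab7-labelled libraries and 7.24, 6.16, 6.32 and 10.8 FPKM in Controls (1.09 ± 0.24, adjusted p = 0.025). It was called within both classes but not without Rab7-labelled library 1 or 4 or Control 1, 2 or 3 (0.089 at most).

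None of 40 phototransduction genes was called (median -0.166, 13 above 0 and 27 below, 4 at an unadjusted p below 0.05). The call of the rhodopsin gene Rh4, chosen after its values were seen, depended on the Act57B class. Its difference was 0.29 ± 0.35 (adjusted p = 0.76), with 0.44 and 0.69 within the low- and high-Act57B classes. With the class as a covariate Rh4 was called higher (adjusted p = 0.0053). The major rhodopsin gene ninaE had 10200.0 and 11060.0 FPKM in Rab7-labelled libraries 1 and 4 and 23200.0 and 26360.0 FPKM in libraries 2 and 3, against 27650.0, 30160.0, 26520.0 and 21890.0 FPKM in Controls 1 to 4. The pair of high-Act57B libraries was the lowest, and the groups overlapped (-0.70 ± 0.59, adjusted p = 0.61). In Rab5 RNAi heads ninaE ranged from 685.8 to 4918.0 FPKM, below every Rab7-labelled library (Rab7-labelled minus Rab5 RNAi 2.98, adjusted p = 0.0042). None of 21 retinal transcription factor genes (median 0.016), 7 histamine transmission genes (-0.202) or 17 pigment granule genes (-0.048) was called.

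A few blood cell genes fell. Of 20 tested hemocyte and clotting genes 4 fell (20.0%, against 1.56% of all tested genes) and none rose. The median was -0.15, with 7 above 0 and 13 below. The summed level of the list was 611.0 to 759.4 FPKM in Rab7-labelled and 616.5 to 729.5 FPKM in Control libraries. The 4 called genes averaged 4.05 to 15.1 FPKM in Controls, a small part of that sum, so the sum says little about them. PPO1, the prophenoloxidase gene of crystal cells, had 1.38, 0.79, 1.48 and 1.12 FPKM in Rab7-labelled libraries against 7.68, 6.10, 6.14 and 9.39 FPKM in Controls (-1.92 ± 0.20, adjusted p = 0.00016). Rab5 RNAi heads overlapped Controls, with 5.07 to 10.9 FPKM (Rab7-labelled minus Rab5 RNAi -1.90, adjusted p = 4.9e-05). The scavenger receptor gene Sr-CI had 3.07 to 4.12 FPKM against 8.15 to 14.04 FPKM (-1.28 ± 0.23, adjusted p = 0.0092), hemolectin (Hml) 4.87 to 6.61 against 11.5 to 20.3 FPKM (-1.28 ± 0.27, adjusted p = 0.025) and the phagocytosis receptor gene NimC1 1.51 to 2.10 against 3.41 to 5.27 FPKM (-0.84 ± 0.20, adjusted p = 0.037). PPO1 kept its call in every alternative run. Within the low-Act57B class Sr-CI gave 0.081, Hml 0.23 and NimC1 0.13. Hml lost its call without any 1 library but Rab7-labelled library 3 and Control 2 (0.074 at most), and NimC1 without any 1 of the 8 (0.061 to 0.098).

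Immune effector genes differed widely between libraries of the same group. Of 34 antimicrobial and Bomanin peptide genes 1 fell and none rose, although 30 lay below 0 and the median was -0.837. The called gene was IMPPP, a peptide precursor gene, with 0.63, 1.60, 4.11 and 1.01 FPKM in Rab7-labelled and 4.54, 7.95, 8.79 and 3.32 FPKM in Control libraries, which overlapped (-1.40 ± 0.34, adjusted p = 0.045). It lost its call without any 1 library but Rab7-labelled library 3 and Control 4 (0.15 at most). Drosomycin (Drs) had 24.1, 316.7, 287.5 and 17.4 FPKM in Rab7-labelled libraries 1 to 4, against 511.0, 528.5, 567.5 and 278.6 FPKM in Controls 1 to 4 (-2.50 ± 0.80, adjusted p = 0.12). It was called within the high-Act57B class (-3.70, adjusted p = 0.0029) and not within the low one (-0.82, adjusted p = 0.21), and it was called without Rab7-labelled library 2 (adjusted p = 0.048). IM1, an immune-induced peptide gene, had 232.2, 682.1, 648.3 and 217.2 FPKM against 432.9, 455.7, 436.5 and 397.0 FPKM (-0.15 ± 0.34, adjusted p = 0.88), and its sign turned with the class. Rab7-labelled libraries 2 and 3 stood above Controls 1 to 3 (0.59, adjusted p = 0.033), and libraries 1 and 4 below Control 4 (-0.82, adjusted p = 0.025). Drs and IM1 were picked for display once their values were known. Of 40 Toll and Imd recognition and signalling genes 1 rose, the recognition protein gene GNBP2 (0.54 ± 0.12, adjusted p = 0.028), which lost its call without Rab7-labelled library 1 or 4 or Control 1, 2 or 3 (0.10 at most). Of 11 Turandot and JAK/STAT genes 1 fell, TotX.

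Stress and detoxification genes changed member by member. Of 26 heat shock and cochaperone genes Hsp70Bb alone was called, with 54.0, 110.6, 101.3 and 48.9 FPKM in Rab7-labelled libraries against 30.5, 20.8, 24.1 and 17.5 FPKM in Controls (1.65 ± 0.25, adjusted p = 0.0026). The near-identical Hsp70Ba had 5.06 to 12.2 against 3.62 to 5.07 FPKM (0.79 ± 0.22, adjusted p = 0.065), and reads may have been split between such copies. Of 22 endoplasmic reticulum stress genes Thor alone was called; this translation inhibitor gene had 471.6, 264.3, 261.6 and 418.7 FPKM against 171.6, 166.7, 163.1 and 276.7 FPKM, which overlapped (0.85 ± 0.21, adjusted p = 0.048; not without Rab7-labelled library 1 or 4 or Control 1, 2 or 3, 0.15 at most). None of 28 apoptosis and JNK genes on the list was called (median 0.072, 2 at an unadjusted p below 0.05). That list does not hold the caspase gene Strica, which rose as given above (2.08 ± 0.15, limma adjusted p = 5.5e-06).

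Of 33 glutathione S-transferase genes 4 rose and none fell (median 0.196), a share of 12.1% that rose, against 1.64% of all tested genes. GstE1 had 107.4, 106.4, 117.8 and 107.8 FPKM in Rab7-labelled libraries against 42.7, 45.9, 32.8 and 83.2 FPKM in Controls (1.17 ± 0.26, adjusted p = 0.029). In Rab5 RNAi heads it reached 355.7 to 719.3 FPKM, above Rab7-labelled heads (-2.22, adjusted p = 0.00012). Without any 1 library but Control 4 its call ended (0.10 at most). GstE11 (1.25 ± 0.23, adjusted p = 0.010), GstT4 (0.73 ± 0.13, 0.0088) and GstZ1 (0.65 ± 0.15, 0.038) also rose, and GstZ1 lost its call without any of 6 libraries (0.12 at most), Rab7-labelled library 3 and Control 4 being the exceptions. Within the low-Act57B class GstE11 alone of the 4 lost its call (0.82, adjusted p = 0.095). Within the high-Act57B class the other 3 lost theirs, GstE1 at 0.37 (adjusted p = 0.23), GstZ1 at 0.18 (0.68) and GstT4 at 0.69 (0.087).

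Cytochrome P450 genes went both ways, with 4 of 68 higher, 5 lower and a median of -0.011. Cyp4p1 had 30.9, 18.9, 18.7 and 27.7 FPKM in Rab7-labelled libraries against 50.4, 43.02, 45.2 and 60.2 FPKM in Controls (-1.04 ± 0.17, adjusted p = 0.0039). Rab5 RNAi heads lay on the other side of Control, with 79.4 to 107.0 FPKM (Rab7-labelled minus Rab5 RNAi -1.93, adjusted p = 8.7e-06). Cyp4d21 fell to 29.4 to 35.4 FPKM in Rab7-labelled libraries, against 50.2 to 59.8 FPKM in Controls (-0.81 ± 0.13, adjusted p = 0.0039). Cyp316a1 rose to 1.24 to 2.10 FPKM, against 0.12 to 0.38 FPKM in Controls (1.12 ± 0.14, adjusted p = 0.00058). Among 30 UDP-glycosyltransferases and esterases 1 fell, CG17322, with 9.28 to 12.9 against 17.6 to 21.7 FPKM (-0.76 ± 0.12, adjusted p = 0.0039). Cyp4d21 was not called within the high-Act57B class (adjusted p = 0.091).

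Genes of the cuticle list rose and fell in equal number, 3 and 3 of 34 tested (median 0.092), and their summed level was 728.3 to 945.5 FPKM in Rab7-labelled and 591.8 to 651.2 FPKM in Control libraries. Cpr62Bb had 84.6, 34.5, 36.3 and 78.3 FPKM in Rab7-labelled libraries against 12.9, 13.4, 11.6 and 22.3 FPKM in Controls (1.81 ± 0.32, adjusted p = 0.0077). Cpr49Ag showed the opposite order of libraries, with 11.7, 34.5, 32.1 and 11.8 FPKM against 7.28, 4.92, 5.29 and 4.60 FPKM (1.70 ± 0.33, adjusted p = 0.014), and its call ended in 3 alternatives (0.14 at most). It was nearly absent from Rab5 RNAi heads, at 0 to 1.004 FPKM (Rab7-labelled minus Rab5 RNAi 3.81, adjusted p = 1.2e-05). The pupal cuticle gene Pcp, which is not on that list, also rose. It had 14.3, 22.8, 14.2 and 15.3 FPKM in Rab7-labelled libraries against 5.54, 2.64, 1.70 and 4.96 FPKM in Controls (1.97 ± 0.30, adjusted p = 0.0033). Osi2, given above, was one of the list members that fell.

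Secreted carriers and peptides gave a few further calls. Of 29 odorant binding protein genes 2 fell, Obp99d and Obp57a (6.9%, against 1.56% of all tested genes), and none rose. Obp57a had 7.94, 7.94, 6.28 and 7.69 FPKM in Rab7-labelled libraries against 19.6, 17.98, 14.5 and 15.2 FPKM in Controls (-1.07 ± 0.15, adjusted p = 0.0014). Of 14 genes of the takeout and juvenile hormone binding family 2 fell, the neighbours CG5945 (65.3 to 90.3 against 110.6 to 154.2 FPKM, -0.83 ± 0.14, adjusted p = 0.0045) and CG5867 (41.2 to 58.5 against 71.3 to 100.1 FPKM, -0.86 ± 0.15, adjusted p = 0.0075), and both calls ended within the high-Act57B class (0.22 and 0.37). Of 35 neuropeptide and peptide hormone genes eclosion hormone (Eh) rose and Nplp3 fell. Eh had 4.51, 2.55, 3.94 and 3.80 FPKM in Rab7-labelled libraries against 0.31, 0.62, 0.55 and 0.73 FPKM in Controls (1.59 ± 0.20, adjusted p = 0.00062). Nplp3 had 10.2, 10.7, 13.8 and 7.36 FPKM against 21.7, 25.1, 21.8 and 30.9 FPKM (-1.19 ± 0.26, adjusted p = 0.025), a call that ended without Rab7-labelled library 1 or 4 or any 1 Control (0.076 at most).

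Glial genes lay low with 1 call. Of 18 tested glial genes 1 fell and none rose, 14 were below 0 and the median was -0.322; their summed level was 1639.0 to 2135.0 FPKM in Rab7-labelled and 2411.0 to 2693.0 FPKM in Control libraries, without overlap. The called gene was Gat, the glial GABA transporter gene, with 15.8, 18.8, 16.7 and 16.4 FPKM in Rab7-labelled libraries against 29.2, 24.3, 24.4 and 37.8 FPKM in Controls (-0.72 ± 0.16, adjusted p = 0.028). It lost its call without Rab7-labelled library 1, 3 or 4 or Control 1 or 4 (0.086 at most). Chosen after their values were seen, the glutamate transporter gene Eaat1 had 72.0 to 81.9 against 100.2 to 114.3 FPKM (adjusted p = 0.073), glutamine synthetase Gs2 229.6 to 291.9 against 333.0 to 425.1 FPKM (0.10), and the glial transcription factor gene repo 16.9 to 22.8 against 26.8 to 27.9 FPKM (0.11). None of the 3 overlapped between groups, and 1382 of 10038 tested genes (13.8%) did not either. Each of the 3 passed in 3 of the 21 alternatives run, among them the fit of the 8 libraries alone and the fit with the Act57B class as a covariate.

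Neuronal lists were close to Control. None of 27 synaptic vesicle and active zone genes (median -0.106, 25 below 0), 9 nicotinic receptor genes (-0.055), 11 clock genes (-0.093) or 24 chemoreceptor genes (-0.024) was called. Of 10 activity-regulated genes Arc1, a retrovirus-like capsid gene of neurons, rose. It had 878.6, 386.7, 279.9 and 758.5 FPKM in Rab7-labelled libraries against 180.4, 231.9, 161.3 and 309.3 FPKM in Controls, and library 3 lay within the Control range (1.27 ± 0.31, adjusted p = 0.047). Without Rab7-labelled library 1 or 4 or Control 1, 2 or 3 it was not called (0.15 at most). In Rab5 RNAi heads Arc1 reached 1311.0 to 1737.0 FPKM (Rab7-labelled minus Rab5 RNAi -1.54, adjusted p = 0.0051). Of 15 dopamine and yellow pigment genes y rose and AANAT1, which acetylates monoamines, fell (40.4 ± 2.65 in Rab7-labelled and 53.1 ± 2.004 FPKM in Control heads, SD, n = 4 each; adjusted p = 0.032); the call of AANAT1 ended without any 1 library but Rab7-labelled library 3 (0.11 at most).

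Ribosomal protein, proteasome and glycolysis genes lay slightly above 0, mostly without calls. Of 87 cytosolic ribosomal protein genes 86 lay above 0 with a median of 0.303, and 3 were called higher. RpLP2 had 2311.0, 2274.0, 2207.0 and 2540.0 FPKM in Rab7-labelled libraries against 1711.0, 1917.0, 1342.0 and 1578.0 FPKM in Controls (0.52 ± 0.11, adjusted p = 0.026), and it lost its call without Rab7-labelled library 1 or 4 or Control 1, 3 or 4 (0.076 at most). The call of RpL28 (0.41 ± 0.10, adjusted p = 0.048) ended in 14 of the 21 alternatives run, among them the omission of any 1 library but Control 2 (0.15 at most). Of 37 proteasome genes 35 lay above 0 (median 0.264), and of 13 glycolysis genes 13 did (median 0.272), with no call in either list. Under plain read totals the median of all genes was -0.028. Of 74 mitochondrial ribosomal protein genes 2 fell, mRpS31 (-0.51 ± 0.09, adjusted p = 0.0061) and mRpL34 (-0.71 ± 0.14, 0.013), with a list median of -0.006. The call of mRpL34 ended without Control 3 (0.05), and within the high-Act57B class mRpL34 gave 0.46 and mRpS31 gave 0.13. Of 71 nuclear oxidative phosphorylation genes COX7AL alone was called, higher (1.15 ± 0.24, adjusted p = 0.021; not without Rab7-labelled library 1 or 4 or Control 1, 3 or 4, 0.074 at most), and none of 22 genes of the mitochondrial genome was (median 0.324, 20 above 0). None of 27 muscle genes was called either (median -0.074), and of 18 fat body and yolk genes the maltase gene Mal-A1 fell (-0.91 ± 0.17, adjusted p = 0.010), with 0.058 and 0.12 within the low- and high-Act57B classes. Of 22 serine protease homologue and serpin genes Spn55B alone was called, higher (0.72 ± 0.15, adjusted p = 0.017; not without Rab7-labelled library 1 or 4 or Control 1 or 3, 0.067 at most). Gut, testis and sex marker lists and 9 genes of the RNA interference pathway held no call.

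**Figure D4:**
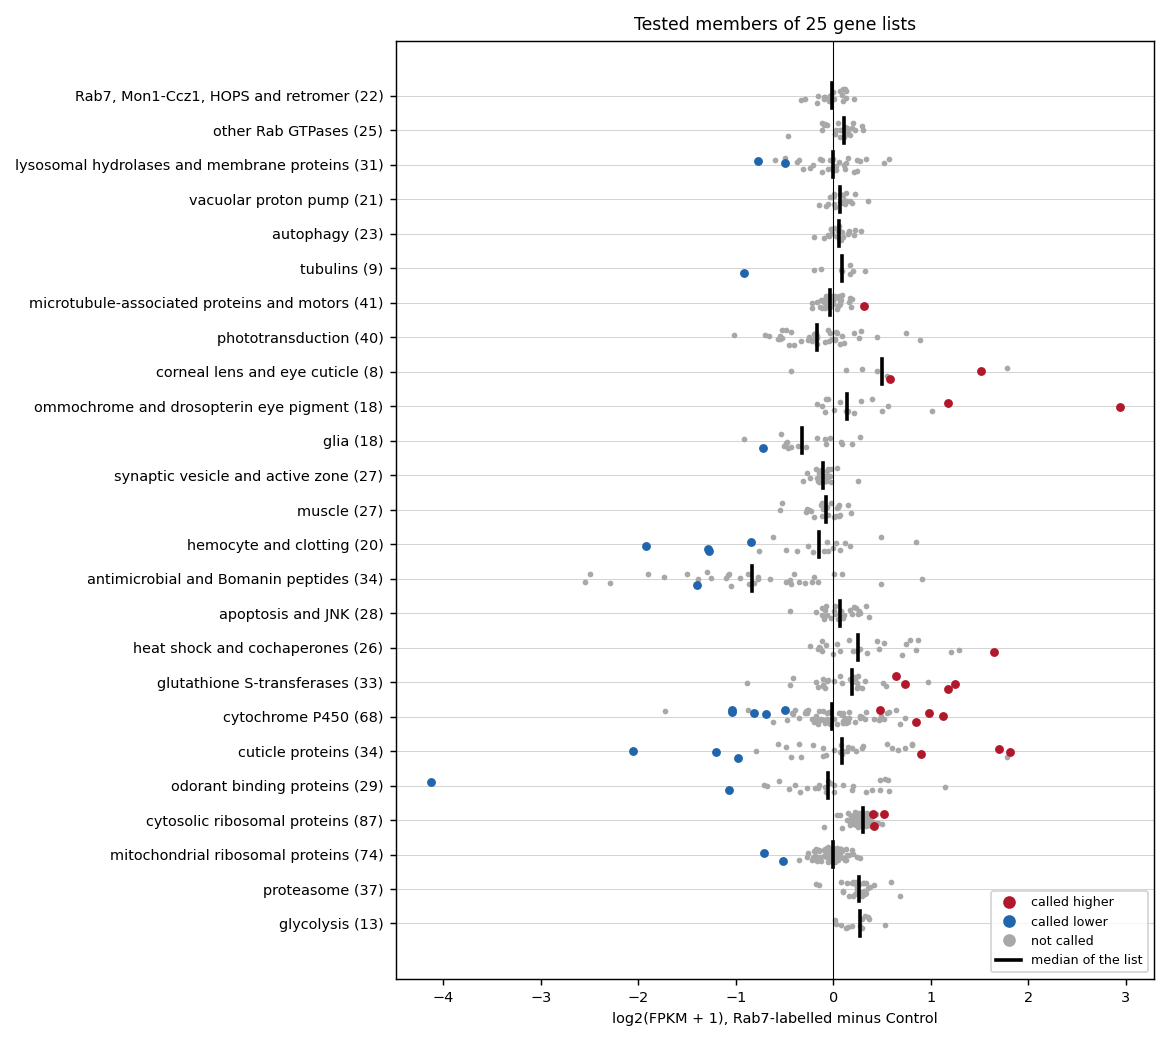
Each row is 1 of 25 gene lists, with the number of tested members in brackets, and each point is a member at its Rab7-labelled minus Control difference of log2(FPKM + 1). Red and blue points are members called higher and lower, grey ones were not called, and the bar is the median of the list; the 87 cytosolic ribosomal proteins form a tight cloud to the right of 0, and 30 of 34 antimicrobial and Bomanin peptides lie to its left.

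Noncoding RNAs were called about as often as all genes, with 7 higher and 7 lower of 437 tested. The nuclear noncoding RNA gene lncRNA:noe had 186.0, 242.0, 201.0 and 180.5 FPKM in Rab7-labelled libraries against 429.7, 460.0, 353.7 and 410.1 FPKM in Controls (-1.03 ± 0.13, adjusted p = 0.00067). lncRNA:CR43242 had 16.3, 20.2, 18.4 and 16.2 FPKM against 6.66, 8.11, 7.17 and 9.33 FPKM (1.09 ± 0.12, adjusted p = 0.00017). lncRNA:CR44301 fell to 0.33 to 0.87 FPKM, against 2.72 to 7.495 FPKM in Controls (-1.90 ± 0.22, adjusted p = 0.00037). The small nucleolar RNA gene snoRNA:Me28S-G980 had 1.47 to 4.22 FPKM in Rab7-labelled libraries, and 3 of the 4 Controls were listed at 0 (1.83 ± 0.33, adjusted p = 0.0090; 0.067 within the high-Act57B class).

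Called genes lay near each other more often than other genes did, as a description without a test. Of 315 called genes with a usable position, 65 (20.6%) had another called gene within 5 kb, against 741 of 9668 uncalled genes (7.66%). They formed 35 neighbouring pairs, and in 28 the members moved in the same direction. On arm 2L the neighbours insv and Elba2, which encode BEN-domain insulator proteins, and Cyp309a2 all rose. insv had 18.7, 25.4, 26.6 and 20.4 FPKM in Rab7-labelled libraries against 8.88, 8.36, 7.64 and 10.2 FPKM in Controls (1.27 ± 0.13, adjusted p = 0.00010), Elba2 10.4 to 18.6 against 4.39 to 5.94 FPKM (1.24 ± 0.17, 0.0010) and Cyp309a2 5.198 to 5.88 against 1.75 to 3.65 FPKM (0.85 ± 0.16, 0.010). Obp57a and lncRNA:CR44645 (-1.41 ± 0.14, adjusted p = 0.00010) fell side by side on 2R. Some pairs share bases: Pcp lies inside Gart, and Adh lies inside osp. Gart (1.02 ± 0.25) and osp (0.37 ± 0.09) were called higher with their inner genes, and both calls ended without any of 6 or more libraries (0.13 and 0.16 at most). The strand setting of the counting is not given in the sources used here, so reads from such overlapping genes cannot be told apart.

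By arm, 30 of 1651 tested genes on X were called (1.82%), 68 of 1763 on 2L (3.86%), 75 of 2089 on 2R (3.59%), 64 of 1922 on 3L (3.33%) and 75 of 2449 on 3R (3.06%). The 1 Mb stretch of 3L from 16000001 to 17000000, which holds CG13071, CG4962, Nplp3 and mRpS31, had 11 of 113 tested genes called (9.73%), with changes in both directions. It held the most calls of any such stretch, but not the highest share: on 2L, 8 of 80 tested genes from 7000001 to 8000000 and 3 of 29 from 14000001 to 15000000 (10.3%) were called, and on 2R 3 of 30 from 4000001 to 5000000. Another 3 stretches, with 3, 10 and 19 tested genes, had 2, 1 and 2 called. Gene models without a name were called in 15 of 171 cases (8.77%). The labels describe the genetic background of the lines no further than the genotypes given above, so background and RNAi cannot be told apart in this comparison.

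Rab5 RNAi heads gave a direct comparison for the called genes. In Rab7-labelled minus Rab5 RNAi, 1111 genes (11.1%) were called, and 111 of the 322 genes (34.5%) were among them. Of these, 63 were higher in Rab7-labelled heads than in both other groups and 35 lower than in both, while 9 were higher than Control but lower than Rab5 RNAi and 4 lower than Control but higher than Rab5 RNAi. For the other 211 the RNAi groups did not differ past the threshold, which does not show that they were alike. The first kind includes se, v, Strica, CG11313, CG13071, Crys, insv and nod, the second PPO1, Sr-CI, Hml, NimC1 and Cyp4p1, and the third y, Arc1 and GstE1. The Rab7-labelled libraries are shared by both comparisons and all Controls are shared by the RNAi groups, so agreement between them is not independent.

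**Figure D5:**
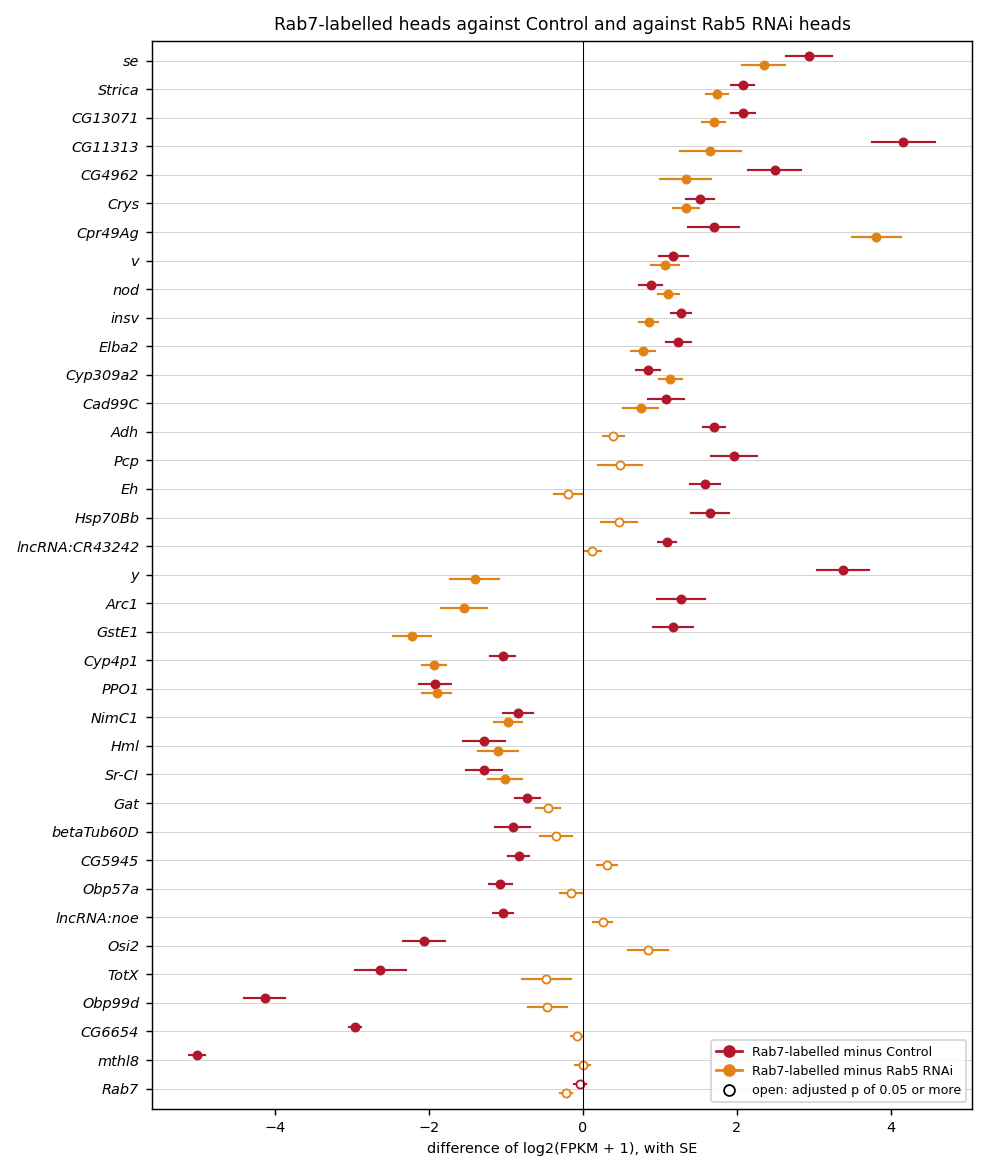
Rows are 37 named genes; red points are Rab7-labelled minus Control and orange points Rab7-labelled minus Rab5 RNAi, as differences of log2(FPKM + 1) with SE, filled where the limma adjusted p was below 0.05. Genes in the upper rows, such as se and Strica, are to the right of 0 in both, PPO1 is to the left in both, and y, Arc1 and GstE1 lie on opposite sides; mthl8 has no read in either RNAi group, so its orange point at 0 carries no comparison.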

How the data were processed

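RNA-seq of whole heads was analysed from the FPKM values that the authors deposited for 18344 genes in each of 13 libraries. CASAVA is named, with no version, in the submitters' processing notes; the aligner, counter, strand setting and build were not given in the sources used here. Multiplied by gene length, the deposited FPKM values of a library were whole multiples of a single step (182918 values, all whole within 0.05), so reads on genes could be recovered. The values had already been scaled by median-of-ratios size factors before deposit. Coordinates are those of the deposited table, which has 591 models without a name, 5 names turned into dates that were repaired, and 89 damaged chromosome cells; 17502 of 17626 identifiers (99.3%) had the same coordinates in the BDGP6 annotation. The 13 per-sample columns of that table were not used.

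Libraries were grouped by the genotype label. limma 3.58.1 (R 4.3.3, mean-variance trend, robust empirical Bayes) was fitted to log2(FPKM + 1) of 10038 genes (mean FPKM over 13 libraries no lower than 1), over all 3 groups together and without covariates. The contrasts were Rab7-labelled minus Control and Rab7-labelled minus Rab5 RNAi, each with Benjamini-Hochberg adjustment over all 10038 genes and a threshold of 0.05. Every adjusted p in the text comes from limma. Those given within an Act57B class, without a library or under another alternative come from the separate limma fit of that alternative, and all others from the fit above. Genes named in the text include the 12 largest called rises and 12 largest called drops among genes with a symbol, at least 5 FPKM in the higher group and no overlap. They also include up to 4 called members of each of 53 gene lists, all tubulins, and called genes with at most 3 reads in each library of 1 group. Others, namely nod, insv, Elba2, Gart, osp, w, ry, Rab5, ninaE, elav, Act57B, Eaat1, Gs2, repo, Drs, IM1, Rh4 and Hsp70Ba, were chosen after their values were seen, and further called members were omitted for brevity or are not reported here. The comparison and the lists were chosen with earlier results of these data known, so they are counts and medians, without set tests. Alternatives changed the pseudocount, the filter, the scaling, the libraries, the model and the test.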

Additional observations from a re-analysis of the deposited data

Results flagged for a closer look

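In 193 groups of 4 libraries (each named gene in Rab7-labelled and in Control heads), the gap of the highest or lowest library to its nearest neighbour was set against the whole range of the group. A gap share above Dixon's 95% critical value for 4 samples was taken as far from the others, which chance gives in about 1 of 20 groups, and 12 were found, 7 of them in Control 4, the only Control with Act57B of at least 1000 FPKM. In Control 4, CG13117 had 37.96 FPKM (17.3 to 19.3 in the other Controls), GstT4 42.44 FPKM (33.5 to 34.4), Thor 276.7 FPKM (163.1 to 171.6), betaTub60D 12.32 FPKM (9.02 to 9.24) and nod 13.77 FPKM (8.501 to 9.25), each the highest. Control 4 was the lowest for the glial gene repo, at 26.83 FPKM (27.8 to 27.9), and for the rhodopsin gene Rh4, at 205.9 FPKM (423.1 to 466.8). In Control 1 snoRNA:Me28S-G980 had 0.7577 FPKM, with the other Controls listed at 0.

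In Rab7-labelled heads, library 2 was far above the others for Pcp, at 22.76 FPKM (14.2 to 15.3). Library 3 was above them for GstE1, at 117.8 FPKM (106.4 to 107.8), and below them for Obp57a, at 6.278 FPKM (7.69 to 7.94). Library 4 was above them for Cyp4d21, at 35.44 FPKM (29.4 to 29.6). The part of the Act57B division in these values was not tested.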

How the results depend on the processing

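The comparison gave 322 called genes (165 higher, 157 lower), and 21 alternatives were run. Every called gene that an alternative tested kept its sign there. The count stayed within 1.5 times of 322 under both other pseudocounts (311 and 316), without a filter (328), under plain totals (273), TMM scaling (318), limma without trend and robust prior (339) and limma voom on recovered reads, chosen after seeing the data (326). It was 215 (103 lower) at a mean of at least 5 FPKM, where fewer genes were tested, and 559 (293 higher, 266 lower) with the 8 libraries alone. With the Act57B class as a covariate it was 629 (314 higher, 315 lower). It was 435 (252 higher) among low-Act57B and 371 among high-Act57B libraries, where 191 and 139 of the 322 genes were called. Leaving out 1 library gave 167 to 297 called genes, 80 to 166 higher and 87 to 136 lower. The cause of these changes was not tested.

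With the replicate block in the 8 libraries, 594 genes were called (342 higher, 252 lower), 274 of them among the 322. Same-numbered libraries did not deviate together throughout (correlations -0.159, 0.0825, 0.209 and 0.303), and libraries of unlike number ranged from -0.331 to 0.36. So few values cannot show whether libraries were paired, and the numbers are used here only as names.

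Rab7 was called in no alternative. Its difference turned to 0.036 in low-Act57B libraries, and without 1 library it ran from -0.092 to 0.014. Genes not called also turned sign: Rab5 (-0.023) and w (-0.027) in high-Act57B libraries, ry with the covariate (-0.047) and in low-Act57B libraries (-0.041), and elav (0.089) and IM1 (0.59) in low-Act57B libraries. Without 1 library, elav ran from -0.24 to 0.024 and IM1 from -0.43 to 0.12.

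Of 74 called genes named here, 33 kept their call throughout, 15 lost it only within an Act57B class and 24 lost it without at least 1 library. The count tests planned on recovered reads were not run. With 4 libraries a group and reads on genes of 17138630 to 21410768 per library, small differences of low genes are beyond this depth.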
